A study of Sesamum indicum with 6 samples.

Results

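MADS-box genes were examined in young leaves of sesame (Sesamum indicum) seedlings that differed in an allele on linkage group 8. The members were the genes whose product name in the authors' annotated table contained "MADS-box", "MADS box" or "AGAMOUS" in any case, which gave 29 of 20661 genes. RNA was taken from young leaf of 17-day-old recombinant inbred lines, which are inbred progeny that each carry a fixed mixture of the parents' genomes. One group was homozygous for SiCD-A, the allele with wild-type KAN1, and the other for SiCD-B, the allele with the mutant kan1. Seedlings of either group saw 12 h days at 28 °C and 12 h nights at 22 °C, and the labels give no other treatment. Each group held 19 plants, and each of its 3 pools combined equal amounts of RNA from 9 plants drawn at random. The 27 places in a group's pools exceed its 19 plants by 8, so its pools share plants, and the p-values measure the spread between overlapping pools only.

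MADS-box proteins are transcription factors that bind DNA as dimers and larger complexes, at sites called CArG boxes. In flowering plants they time the change from leaf to flower production and then set the identity of the floral organs. AGAMOUS specifies stamens and carpels, and in Arabidopsis its relatives SHATTERPROOF and the more distant FRUITFULL pattern the fruit wall and the zone where the fruit opens. Other members act in vegetative tissue, among them SVP, which holds flowering back, and SOC1, which promotes it.

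The 6 libraries held 56123250 to 82165322 counts. KAN1 (LOC105167765), wild type in SiCD-A and mutant in SiCD-B, had 1579, 1511 and 1420 reads in SiCD_A pools 1 to 3. In SiCD_B pools 1 to 3 it had 4164, 4418 and 4310, a log2 fold change of 1.26 (SE 0.07). The labels do not give the kan1 lesion, so this level does not check them. Principal component 2, with 14.9% of the variance, set SiCD_A pool 3, the shallowest library, apart from the other pools. The leaf label was met by 20 of 20 mesophyll marker genes (Rubisco small subunit and chlorophyll a-b binding proteins), whose summed level was 21800 to 32800 CPM (reads scaled to library depth) in SiCD_A and 21900 to 25800 in SiCD_B. Of these, 1 rose and 3 fell by the test given below, where 16.5% of all tested genes rose and 14.1% fell. Their median log2 fold change was -0.32.

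The leaves held reads of all 29 MADS-box genes, from 20 to 45577 reads per gene over the 6 pools. Detection was set at more than 3 counts in at least 3 pools, and 28 of 29 members met it. The exception was an AGL62-type gene (LOC105169419), with 2, 7 and 1 reads in SiCD_A and 1, 6 and 3 in SiCD_B. Of the 29, 23 exceeded 3 counts in all 6 pools and 17 reached 1 CPM in 3 or more pools. The annotated table lists no gene with fewer than 20 counts over the pools, so detection at a low level is partly built into the choice of members. Another 5101 genes of the count table carry no product name in the files used here, 3090 of them with at least 1 read, so MADS-box genes among them are not analysed here.

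Most of the reads came from genes of flowering time types. The 4 members of the SVP and JOINTLESS type held 52.7% of the 196703 reads counted on the 29 genes, and the 6 of the SOC1 type held 29.6%. By contrast, the 3 genes named for AGAMOUS held 0.265% and the 6 type I genes 0.186%. Transcript lengths were not used, so these shares count reads and are not levels per length. The summed level of the 29 genes was 432, 454 and 488 CPM in SiCD_A pools 1 to 3 and 439, 435 and 459 CPM in SiCD_B pools 1 to 3, and the groups overlapped.

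**Figure D1:**
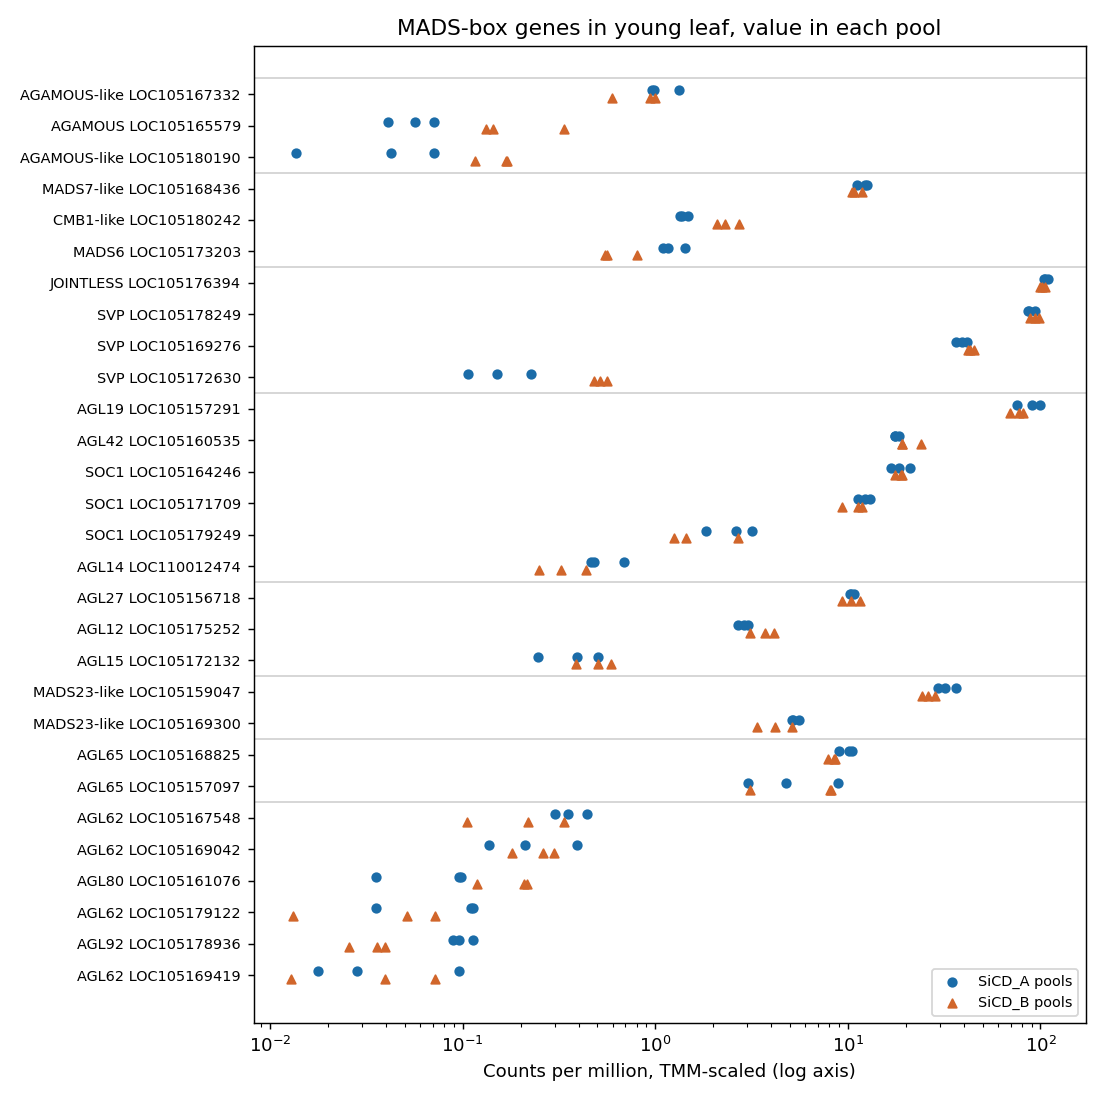
Level of each of the 29 MADS-box genes in each pool, in TMM-scaled CPM on a log axis, with SiCD_A pools as circles and SiCD_B pools as triangles; horizontal lines separate types. Rows are to be read one at a time, since levels are not corrected for length. JOINTLESS lies near 100 CPM in all pools, while the SVP gene LOC105172630 has its 3 SiCD_B pools (0.478 to 0.563 CPM) above its 3 SiCD_A pools (0.107 to 0.225 CPM).

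The first comparison asked which MADS-box genes differed between seedlings with the 2 alleles. Rises were found for 2 of them, an SVP gene (LOC105172630) and a CMB1-like gene (LOC105180242), and falls for 2 others, MADS-box transcription factor 6 (LOC105173203) and a MADS-box transcription factor 23-like gene (LOC105159047). The 2 with most reads, JOINTLESS and an SVP gene, differed by 1.06-fold at most. The test was edgeR's quasi-likelihood test on counts with Benjamini-Hochberg adjustment over all 21009 tested genes, and a gene was called below an adjusted p of 0.05. It covered 23 of the 29 members, the other 6 being below the count filter.

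Of the 23 tested members 4 were called (17.4%), against 30.6% of all tested genes. The members had 2 higher and 2 lower calls, and 16.5% of all genes were called higher and 14.1% lower. Without SiCD_B pool 2, 2 members were higher and 0 lower by edgeR, and calls over all genes went from 6433 to 3919. Scaled by library size alone, 3 members were higher and 1 lower. In the main fit the members' median log2 fold change was -0.05, beside 0.01 for all tested genes, and 9 members were above 0 and 14 below. Of the 16 tested members with a mean of at least 1 CPM 2 were called, where 32.7% of all such genes were. Of the 7 below 1 CPM 2 were called, where 13.2% of all such genes were. For 10 of the 23 members (43.5%) the SiCD_A and SiCD_B pools lay apart, 5 with SiCD_B above and 5 with SiCD_B below, against 48.4% of all tested genes. Over all 23, the share lying apart was near that of the whole table and the share called was below it. Neither difference was tested. The authors' deposited table called the same 4 members and 1 more, the AGL65 gene LOC105168825, where 31.7% of its genes passed.

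**Figure D2:**
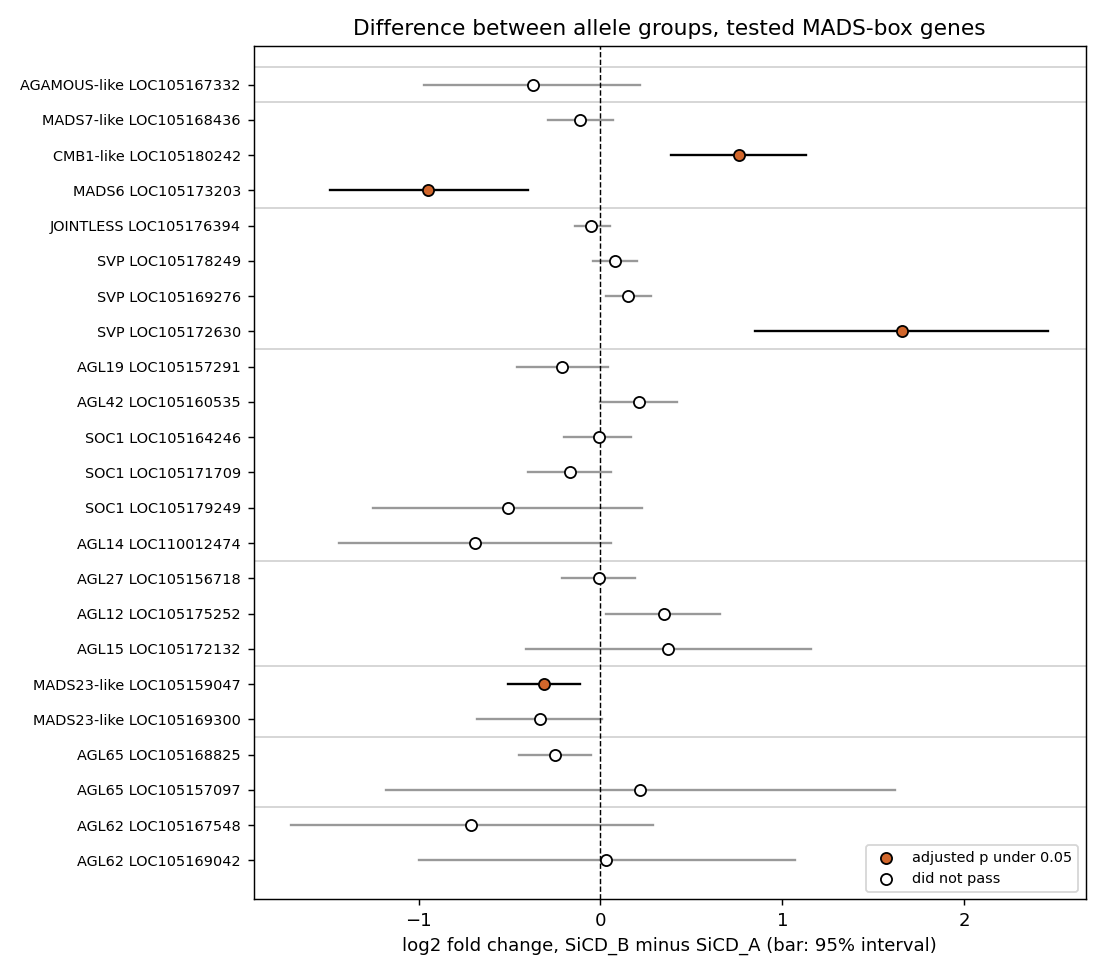
Log2 fold change of the 23 tested MADS-box genes, SiCD_B minus SiCD_A, with 95% intervals as bars; filled points passed an adjusted p of 0.05. The 4 filled points run from -0.95 to 1.66, and most open points lie within 0.5 of 0.

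The AGAMOUS-type genes were the only members named for an organ identity gene of the fruit. Searched as whole names, FRUITFULL, SHATTERPROOF, SEEDSTICK, AGL1, AGL5, AGL8 and AGL11 were in no product name of the annotated table (0 genes each), so the valve and valve-margin genes were not found by name. All 3 AGAMOUS-type genes were at low levels in leaf, with 522 reads together. The one with most reads, AGAMOUS-like LOC105167332 (linkage group 8, coding segment 706592 to 706821), had 94, 72 and 54 reads in SiCD_A pools 1 to 3 and 73, 50 and 76 in SiCD_B. Its pools overlapped, with a SiCD_A mean of 1.09 ± 0.203 CPM and a SiCD_B mean of 0.846 ± 0.216 CPM (SD, n = 3). The log2 fold change of -0.37 (95% interval -0.97 to 0.22) did not pass (edgeR adjusted p = 0.314).

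The gene named AGAMOUS (LOC105165579, linkage group 6, 23113537 to 23113766) had 4, 3 and 4 reads in SiCD_A and 26, 11 and 11 in SiCD_B. Its match to AGAMOUS of other species was not examined beyond the name. Every SiCD_B pool lay above every SiCD_A pool, but the gene fell below the count filter and was not tested. The ratio of the group sums was 3.68, with an exact 95% interval of 1.89 to 7.87 that covers counting error only. Fitted with no filter it had a log2 fold change of 1.85 (SE 0.61) and an adjusted p of 0.0481. That is the 1 setting of 7 in which it passed, the others giving 0.0599 to 0.134. In the authors' deposited table its adjusted p was 0.068.

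The other AGAMOUS-like gene, LOC105180190, lies on a scaffold with no linkage group (17544 to 17773). It had 3, 1 and 4 reads in SiCD_A and 9, 14 and 13 in SiCD_B, again without overlap. The ratio of the sums was 3.80 (exact 95% interval 1.74 to 9.46, counting error only), and with no filter its edgeR adjusted p was 0.0565. A limit of 3 counts corresponds to 0.0359 to 0.0533 CPM in these libraries, and the SiCD_A pools of both genes sat close to it. Counts alone cannot separate reads of AGAMOUS-type genes where their sequences are shared, because the handling of reads with several matches is not given in the sources used here.

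**Figure D3:**
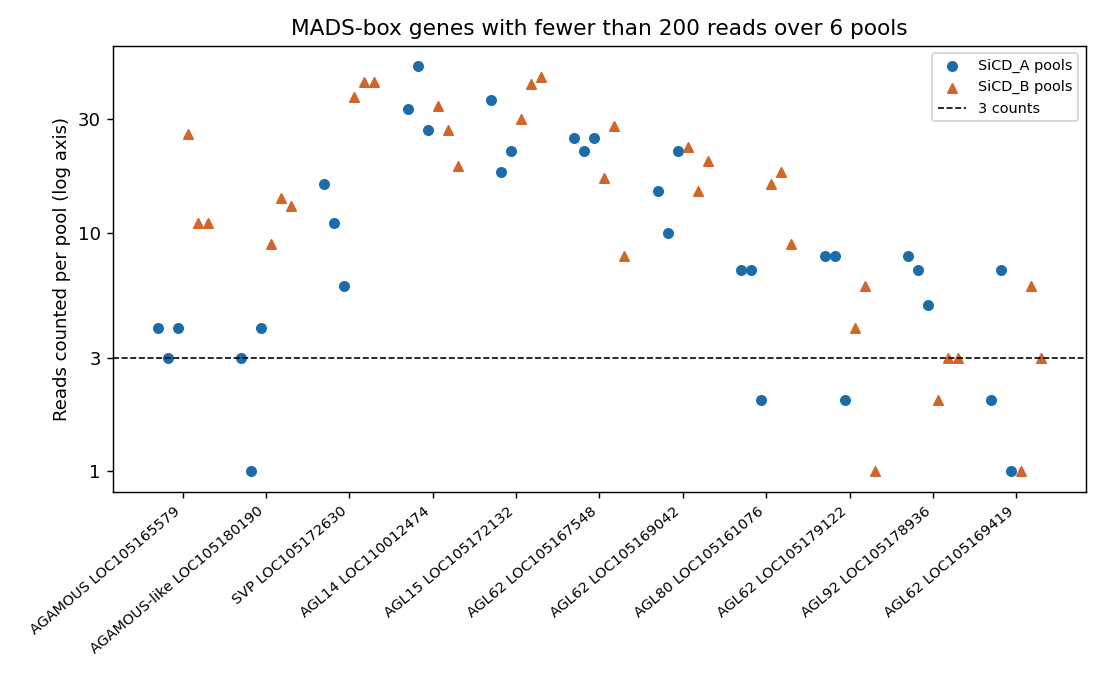
Reads per pool, on a log axis, for the 11 MADS-box genes with fewer than 200 reads over the 6 pools; circles are SiCD_A pools, triangles SiCD_B pools, and the dashed line marks 3 counts. SiCD_B pools lie above SiCD_A pools for AGAMOUS, AGAMOUS-like LOC105180190, the SVP gene LOC105172630 and AGL80, and below them for AGL92.

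Genes of the SEPALLATA and AGL6 types act together with the organ identity factors in the flower, and of the 3 in the set 1 rose and 1 fell. CMB1-like (LOC105180242, a scaffold with no linkage group, 10175 to 10359) is named for a carnation gene of the SEPALLATA type. It had 96, 107 and 78 reads in SiCD_A and 179, 174 and 208 in SiCD_B. All SiCD_B pools were above all SiCD_A pools, 2.37 ± 0.326 against 1.40 ± 0.0587 CPM (SD, n = 3). The gene rose by 0.76 on the log2 scale (SE 0.16, edgeR adjusted p = 0.00880), and it passed in 14 of 14 other settings (adjusted p = 0.00165 to 0.0367).

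MADS-box transcription factor 6 (LOC105173203, linkage group 11, 1610587 to 1610768) is named for a rice gene of the AGL6 type, which acts in floral organs and meristems there. It had 101, 85 and 62 reads in SiCD_A and 62, 46 and 43 in SiCD_B. In CPM the groups did not overlap, at 1.23 ± 0.170 in SiCD_A and 0.638 ± 0.141 in SiCD_B (SD, n = 3). The log2 fold change was -0.95 (SE 0.24, edgeR adjusted p = 0.0181). The call was lost when SiCD_A pool 1 was left out (adjusted p = 0.0696), and likewise for pool 2 (0.0681) or pool 3 (0.0599) of SiCD_B. All settings spanned 0.00588 to 0.0696.

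The third gene of this type, MADS-box transcription factor 7-like (LOC105168436, linkage group 8, 12841654 to 12841838), had 786, 891 and 708 reads in SiCD_A and 814, 904 and 902 in SiCD_B. It is named for a rice gene of the SEPALLATA type, and its read count was the highest of the 3. The groups overlapped, at 11.9 ± 0.785 and 11.0 ± 0.684 CPM (log2 fold change -0.11, 95% interval -0.29 to 0.07).

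Of 4 genes of the SVP and JOINTLESS type, the one with fewest reads rose and the other 3 did not pass. SVP represses flowering in Arabidopsis, and JOINTLESS is named for the tomato gene required for the abscission zone of the flower stalk. JOINTLESS (LOC105176394, linkage group 13, 3957200 to 3957381) had the most reads of all 29 members, 45577 over the 6 pools. Its level was 104, 106 and 109 CPM in SiCD_A pools 1 to 3 and 99.3, 106 and 102 CPM in SiCD_B. These overlapped, and the 95% interval of the log2 fold change was -0.14 to 0.05 around -0.05.

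The SVP gene LOC105178249 (linkage group 15, 8474560 to 8474810) had overlapping pools, with means of 88.8 ± 3.89 CPM for SiCD_A and 93.8 ± 5.09 CPM for SiCD_B (SD, n = 3). Its log2 fold change was 0.08 (95% interval -0.04 to 0.20, edgeR adjusted p = 0.280). Another SVP gene, LOC105169276 (linkage group 8, 18488747 to 18488928), had 36.5, 39.0 and 41.4 CPM in SiCD_A and 43.2, 41.8 and 45.0 CPM in SiCD_B. Its pools were just apart, and its log2 fold change of 0.15 (SE 0.06) did not pass (edgeR adjusted p = 0.0685). It passed scaled by library size alone (0.0413), with the pool number as a block (0.0366) and without SiCD_A pool 3 (0.0271), out of a range of 0.0271 to 0.235.

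The remaining SVP gene, LOC105172630 (linkage group 10, 15027426 to 15027607), had 16, 11 and 6 reads in SiCD_A and 37, 43 and 43 in SiCD_B. The groups were well apart, the highest SiCD_A pool having 16 reads and the lowest SiCD_B pool 37. Its level went from 0.161 ± 0.0600 to 0.519 ± 0.0430 CPM (SD, n = 3), a log2 fold change of 1.66 (SE 0.35, 95% interval 0.85 to 2.46, edgeR adjusted p = 0.00853). This was the largest change among tested members and the only one past 2-fold, which 2.93% of all tested genes reached with a call. The gene passed in 13 of the 13 other settings that kept it, at 0.00345 to 0.0347. It fell out of the setting that asked for 1 CPM in 3 pools.

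Of 6 genes of the SOC1 type 0 passed in edgeR or DESeq2, and 0 had an unadjusted p under 0.05 in edgeR. In Arabidopsis SOC1, AGL19 and AGL42 promote flowering, and AGL14 belongs to the same clade. AGL19 (LOC105157291, linkage group 1, 5787406 to 5787587) had 75.4, 89.9 and 99.7 CPM in SiCD_A and 77.7, 69.7 and 81.2 CPM in SiCD_B. The highest 2 values were both SiCD_A pools, but the groups overlapped, and the log2 fold change of -0.21 had a 95% interval of -0.46 to 0.04 (edgeR adjusted p = 0.173). It passed only without SiCD_A pool 1 (0.0242), in a range up to 0.395.

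AGL42 (LOC105160535, linkage group 4, 10372065 to 10372246) was at 17.9 ± 0.448 CPM in SiCD_A and 20.7 ± 2.92 CPM in SiCD_B (log2 fold change 0.21, SE 0.09, edgeR adjusted p = 0.121). Its pools did not overlap, with SiCD_B pool 3 at 24.1 CPM and the other SiCD_B pools at 19.0 CPM. SOC1 LOC105164246 (linkage group 6, 9069700 to 9069881) was at 18.7 ± 2.03 and 18.5 ± 0.848 CPM, a log2 fold change of -0.01 (95% interval -0.20 to 0.17). SOC1 LOC105171709 (linkage group 1) had a log2 fold change of -0.17 (95% interval -0.40 to 0.06).

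The 2 with fewest reads in this type gave wide intervals. SOC1 LOC105179249, on a scaffold with no linkage group, had 186, 232 and 103 reads in SiCD_A and 97, 120 and 205 in SiCD_B. SiCD_B pool 3 lay inside the SiCD_A range, and the log2 fold change of -0.51 (95% interval -1.25 to 0.23) did not pass (edgeR adjusted p = 0.261), though it did without that pool (-0.92, adjusted p = 0.0398). AGL14 (LOC110012474, linkage group 8) had 33, 50 and 27 reads in SiCD_A and 34, 27 and 19 in SiCD_B. Scaled for depth its SiCD_B pools were all below its SiCD_A pools, 0.337 ± 0.0958 against 0.543 ± 0.123 CPM (log2 fold change -0.69, SE 0.33, edgeR adjusted p = 0.144).

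Single members of other clades did not pass either. AGL27 is known in Arabidopsis as a repressor of flowering related to FLC. The sesame AGL27 gene (LOC105156718) was at 10.5 ± 0.210 and 10.4 ± 1.05 CPM (log2 fold change -0.01, 95% interval -0.21 to 0.19). AGL12 (LOC105175252), known from Arabidopsis roots, had 2.70, 2.89 and 3.02 CPM in SiCD_A and 3.73, 4.11 and 3.12 CPM in SiCD_B. Its SiCD_B pools were all higher, but the log2 fold change of 0.35 (SE 0.14) missed the threshold (edgeR adjusted p = 0.0888). AGL15 (LOC105172132), which acts in Arabidopsis embryos, had 18 to 36 reads in SiCD_A and 30 to 45 in SiCD_B, and the groups overlapped (log2 fold change 0.37, 95% interval -0.41 to 1.16).

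Both MADS-box transcription factor 23-like genes, named for a rice gene of the AGL17 clade, were lower in all SiCD_B pools, and 1 passed. LOC105159047 (linkage group 3, 20931738 to 20931919) had 29.5, 32.0 and 36.4 CPM in SiCD_A and 26.1, 24.2 and 28.5 CPM in SiCD_B. The gap between the groups was narrow, from 28.5 to 29.5 CPM. The gene fell by 0.31 on the log2 scale (SE 0.09, edgeR adjusted p = 0.0280), and this call was lost scaled by library size alone (adjusted p = 0.0684) and when SiCD_A pool 2 (0.0621) or SiCD_B pools 1 (0.0687) or 2 (0.0989) were left out. All settings together spanned 0.00448 to 0.0989. LOC105169300 (linkage group 8, 18637582 to 18637763) was at 5.31 ± 0.236 CPM in SiCD_A and 4.22 ± 0.882 CPM in SiCD_B. Its log2 fold change of -0.33 was similar in size, but SiCD_B pool 1, at 5.13 CPM, lay next to the lowest SiCD_A pool, at 5.14 CPM, and the gene did not pass (edgeR adjusted p = 0.129). It passed without that pool (-0.50, adjusted p = 0.0291), in 1 of 14 other settings.

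**Figure D4:**
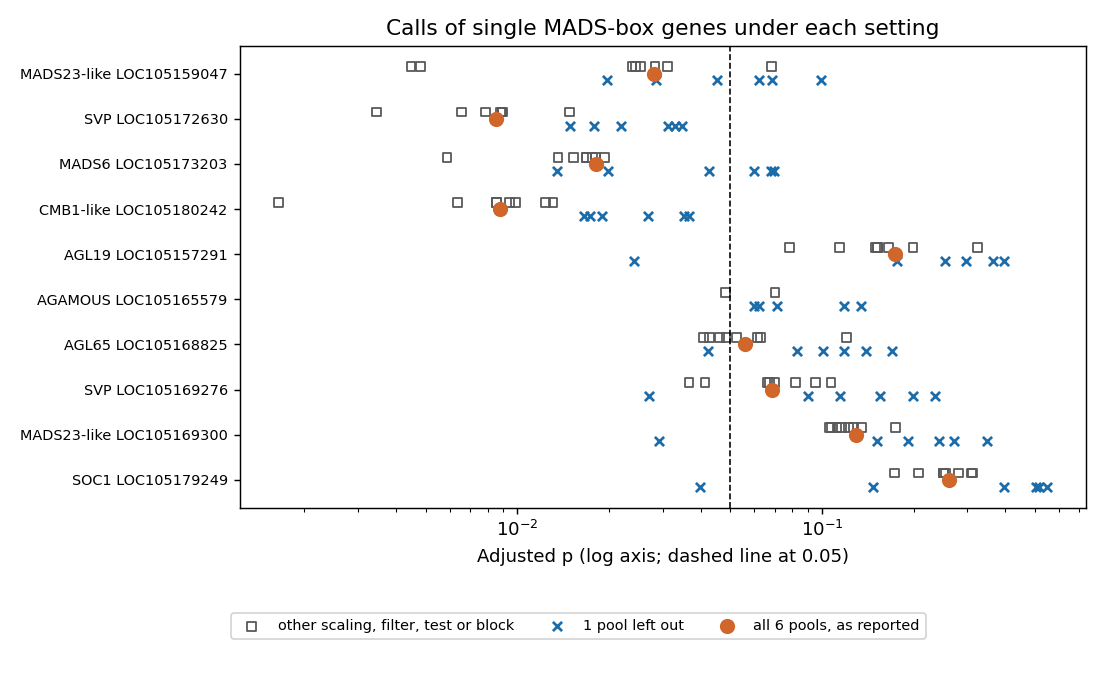
Adjusted p, on a log axis, of the 10 MADS-box genes that passed in at least 1 setting; the large point is the fit with all 6 pools as reported, squares are other scalings, filters, tests or the block, and crosses leave out 1 pool. AGAMOUS was below the filter with all 6 pools and has no large point. For SVP LOC105172630 and CMB1-like LOC105180242 every symbol lies left of 0.05, while MADS6 and MADS23-like LOC105159047 have crosses on both sides.

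The 2 AGL65-type genes, of a clade that acts in pollen in Arabidopsis, contrasted in how they varied. LOC105168825 (linkage group 8, 14929532 to 14929716) had 10.1, 9.01 and 10.5 CPM in SiCD_A and 8.52, 7.86 and 8.53 CPM in SiCD_B. The groups did not overlap, and the log2 fold change of -0.25 (SE 0.09) stood at an edgeR adjusted p of 0.0560. It passed in 5 of 14 other settings, over 0.0409 to 0.170, and had an adjusted p of 0.0412 in the authors' deposited table.

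LOC105157097 (linkage group 3, 2637565 to 2637773) had 338, 222 and 501 reads in SiCD_A and 630, 672 and 236 in SiCD_B. In CPM these were 4.76, 3.04 and 8.89, against 8.13, 8.04 and 3.09. Both groups thus held pools near 3 and pools above 8 CPM, and the log2 fold change of 0.22 had a 95% interval of -1.18 to 1.62. The variance of its counts around the group means was 103 times that of counting error, where the median was 4.24 over the tested members and 4.75 over all tested genes. Coefficients of variation as large in both groups (54.1% and 44.9%) were found for 10 of 18752 genes with a mean of at least 1 CPM, this gene included, a count made after its values were seen. By variance over counting error, a ratio that grows with read count, the next member was AGL19, at 73.6. Its coefficients of variation were modest, 13.9% in SiCD_A and 7.77% in SiCD_B. Those of SOC1 LOC105179249 were larger, at 26.7% and 43.5%.

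Type I genes, which in Arabidopsis act mainly in the female gametophyte and the endosperm, had few reads, 366 in all. Of 4 AGL62-type genes the 2 tested had 8 to 28 reads per pool. LOC105167548 (linkage group 8, 559455 to 560081) had 25, 22 and 25 reads in SiCD_A and 17, 28 and 8 in SiCD_B, and its log2 fold change of -0.71 (95% interval -1.70 to 0.29) was the largest among tested members that did not pass (edgeR adjusted p = 0.251). LOC105169042 had a mean of 0.246 CPM in both groups. LOC105179122 was not tested, with 8, 8 and 2 reads in SiCD_A and 4, 6 and 1 in SiCD_B. AGL80 (LOC105161076), which is required in the Arabidopsis central cell, had 7, 7 and 2 reads in SiCD_A and 16, 18 and 9 in SiCD_B, a ratio of 2.27 (exact 95% interval 1.25 to 4.32, counting error only). AGL92 (LOC105178936) went the other way, with 8, 7 and 5 reads against 2, 3 and 3, a ratio of 0.338 (0.129 to 0.800). With no filter neither passed (edgeR adjusted p = 0.146 and 0.103).

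Some floral homeotic genes carry no word of the rule in their product name, although their namesakes in snapdragon and Arabidopsis encode MADS-box proteins. APETALA 1 acts in floral meristems and the outer floral organs, and DEFICIENS and GLOBOSA in petals and stamens. Of 5 such genes 1 of the 4 tested rose, where 16.5% of all tested genes did. APETALA 1 A-like LOC105180307 had 95, 100 and 56 reads in SiCD_A and 157, 163 and 204 in SiCD_B, without overlap in CPM (log2 fold change 0.84, SE 0.20, edgeR adjusted p = 0.0140). APETALA 1 (LOC105156749) had 0.674 ± 0.227 and 0.969 ± 0.183 CPM, with overlapping pools (adjusted p = 0.195 in edgeR). DEFICIENS (LOC105159317) was at 2.98 ± 0.0710 CPM in SiCD_A and 2.43 ± 0.193 CPM in SiCD_B, all SiCD_B pools lower, with an edgeR adjusted p of 0.116. APETALA 1 A-like LOC105180312 was not tested, with 2, 6 and 2 reads in SiCD_A and 4, 10 and 8 in SiCD_B. GLOBOSA (LOC105164846) gave 0.387 ± 0.0352 and 0.417 ± 0.159 CPM, and its pools overlapped.

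Other genes of flowering and fruit, taken by product words and including those 5, gave 15 higher and 9 lower calls among 65 tested (36.9%, median log2 fold change 0.05), against 30.6% of all tested genes, 16.5% higher and 14.1% lower. The floricaula gene (LOC105158515), whose Arabidopsis counterpart LEAFY switches on floral MADS-box genes, fell by 0.57 on the log2 scale (SE 0.16, edgeR adjusted p = 0.0280). Protein FD (LOC105178182), the partner of the flowering signal FT at the shoot apex, rose from 18, 23 and 26 reads to 71, 88 and 66, a log2 fold change of 1.48 (SE 0.29, edgeR adjusted p = 0.00553). By smallest p the rises were led by APETALA 2 (LOC105177600, 0.53), SUPERMAN (LOC105155947, 0.72), APETALA 2-like (LOC105176219, 0.38) and FRIGIDA-like 4a (LOC105156998, 0.43). The falls were led by EARLY FLOWERING 3 (LOC105163599, -0.52), GIGANTEA-like (LOC105158892, -0.37), CONSTANS-LIKE 12 (LOC105162753, -0.56) and a further EARLY FLOWERING 3 gene (LOC105164696, -0.24). The lower calls numbered 3 without SiCD_A pool 1 or SiCD_B pool 2, 4 without SiCD_A pool 2 and 5 without SiCD_B pool 3.

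By position, 9 of the 29 MADS-box genes (31.0%) lie on linkage group 8, which holds 10.1% of the genes of the annotated table. Of 8 tested, 0 were called by edgeR, where 30.6% of all tested genes were, 2 had an unadjusted p under 0.05 (1 higher and 1 lower), and DESeq2 called 1, AGL65 LOC105168825. The nearest to KAN1 was AGAMOUS-like LOC105167332, 4.36 Mb away. The 4 called members lie on linkage groups 3, 10 and 11 and on a scaffold with no linkage group.

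Genes taken by name for other tissues were read beside these results. In bulk leaf, more cells of a type and more RNA per cell cannot be told apart. Of 15 genes taken by product words for shoot apex and meristem, 14 were detected. Of the 12 tested, 3 rose (median 0.30 on the log2 scale), where 16.5% of all tested genes did. The words also took in CLAVATA3/ESR-related genes and LET12 genes, so the list is not one of meristem markers alone. The CLAVATA3/ESR-related gene TDIF (LOC105163512, log2 fold change 0.71) was among the 3 that rose. In edgeR 0 of the 12 fell, also by unadjusted p, and DESeq2 called 4 higher and 0 lower. Among those tested, the largest rise was in a knotted-1-like 1 gene (LOC105172431), from 44 to 298 reads over the pools (log2 fold change 2.47). Some members of its family mark meristems. The untested knotted-1-like 6 gene (LOC105168282) had 4 reads over the SiCD_A pools and 62 over the SiCD_B pools. The summed level of the list was 239 to 279 CPM in SiCD_A and 257 to 288 CPM in SiCD_B. Most of its reads came from the LET12 genes LOC105162276 and LOC105166408 (33266 and 17263 reads over the SiCD_A pools). Neither of them passed (edgeR adjusted p = 0.0752 and 0.25), and the sum is not a measure of apex content. No product name contained SHOOT MERISTEMLESS. Of 20 genes named for pollen, anther or tapetum 4 rose and 1 fell, where 16.5% of all tested genes rose and 14.1% fell. Their sum was 459 to 504 CPM in SiCD_A against 533 to 555 CPM in SiCD_B. The gene with most reads in that sum, Lol p 11-like LOC105176478 (43885 in SiCD_A and 58941 in SiCD_B), did not pass (edgeR adjusted p = 0.0752). The list for phloem held only SIEVE ELEMENT OCCLUSION genes, a single family, and 6 of 6 fell, where 14.1% of all tested genes did. Its sum was 184 to 209 CPM in SiCD_A against 142 to 166 CPM in SiCD_B. The list for root held only 3 ROOT HAIR DEFECTIVE 3 genes, 0 of which passed in edgeR, in DESeq2 or by unadjusted p. Its sum was 150 to 156 CPM against 147 to 148 CPM. In these leaves its gene LOC105163481 had 22372 reads over the SiCD_A pools and 25653 over the SiCD_B pools. The root and pollen lists rest on names alone, so their sums are not measures of root or flower content. The part of these tissues in the levels of AGAMOUS, SVP LOC105172630, CMB1-like and the other members was not tested.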

How the data were processed

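Per the labels' protocols, an unstranded TruSeq kit (version 2) gave paired reads of 100 bases. Per the submitters' processing notes the tools were STAR, HTSeq and DESeq2, with FastQC 0.11.4, Trim Galore and SAMtools also listed. The sources used here do not name the genome build. The authors deposited whole-number counts per gene for 25762 genes, and a normalized signal that equals the counts divided by 1 factor per pool. The authors' deposited table for 20661 genes adds a mean signal, a log2 fold change, a test statistic (a score), a p-value and an adjusted p-value per gene, with the position of a coding segment. Coordinates are those of that table. Linkage groups were taken from the RefSeq table of S_indicum_v1.0, which matched 29 of 29 members.

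The test on counts was that of edgeR 4.0.16 under R 4.3.3 (TMM scaling, filterByExpr, robust quasi-likelihood fit, SiCD_B minus SiCD_A, no covariates). CPM use the same TMM factors, and a standard error is the log2 fold change divided by the square root of F. Alternatives were other scalings and filters, DESeq2 1.42.0, limma-voom (limma 3.58.1), the pool number as a block, and leaving out each pool. The fit was also run on simulated counts with 200 changed genes. The simulated pools were independent, so that run does not check the fit for pools that share plants. Pools within groups were further apart than counting error allows (5.24 to 29.7 as chi-square over degrees of freedom), so none was merged with another; this does not make pools that share plants independent. Same-numbered pools did not deviate together (r = 0.070, 0.009 and 0.057 over 21009 genes), so the main fit has no block. Intervals and limits for low counts cover counting error only.

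The members and gene lists were chosen with earlier results of these data known. Named are called members, AGAMOUS-type genes, the members with most reads, the largest changes that did not pass, floral homeotic genes and the leading pathway genes. Other members are described so that each of the 29 is accounted for. A ranking by level per coding length was planned, but no lengths were used, so read counts took its place. Protein and promoter sequences were not used here. In 3 members on linkage groups (LOC105168436, LOC105156718 and LOC105169300) the gene span overlaps another gene, and without strand their reads cannot be told apart. Such overlap was not looked up for the 5 members on unplaced scaffolds, CMB1-like LOC105180242 among them. Figures were drawn with matplotlib 3.10.9.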

Additional observations from a re-analysis of the deposited data

How the results depend on the processing

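The 2 higher calls numbered 2 or 3 in every setting except the filter of 1 CPM in 3 pools, which removed SVP LOC105172630 and left 1. The 2 lower calls became 3 with DESeq2 size factors, upper-quartile factors or the DESeq2 Wald test, each adding AGL65 LOC105168825. They became 1 scaled by library size alone and ranged from 0 to 2 when a pool was left out, with 0 without SiCD_B pool 2. The members' median log2 fold change ranged from -0.08 to 0.02 over the left-out pools, and higher calls from 2 to 3. Over all genes the calls with a pool left out ranged from 3919, without SiCD_B pool 2, to 5998. In the flowering and fruit list 11 to 14 genes were higher and 3 to 10 lower over the left-out pools. With all 6 pools 15 were higher and 9 lower in the main fit. The DESeq2 Wald test gave 17 and 13, and library size alone 19 and 7. Members detected numbered 17 at 1 CPM in 3 pools. SOC1 LOC105164246, at -0.01, ranged from -0.09 to 0.06 over the left-out pools and changed sign to 0.03 with library size alone, 0.00 with limma-voom, 0.06 without SiCD_A pool 3 and 0.02 without SiCD_B pool 1, and was called in none of these. With the replicate block 3 members were higher and 3 lower, adding LOC105168825 and LOC105169276, and 7181 genes were called in all. The share of higher calls over all genes moved from 53.8% to 67.5% with library size alone. Causes were not tested. A ranking of levels per coding length and the addition of genes by RefSeq product name were not run, since the tables used here hold neither. The count filter kept 6 members out of the main test, and with no filter 29 were tested and AGAMOUS LOC105165579 was the 1 added call.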

Other observations

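The CMB1-like gene LOC105180242 and the APETALA 1 A-like gene LOC105180307 lie on different scaffolds with no linkage group. Their read counts were close in most pools, least so in SiCD_A pool 3, and the pair was chosen after its values were seen. In SiCD_A pools 1 to 3 CMB1-like had 96, 107 and 78 reads and APETALA 1 A-like had 95, 100 and 56. In SiCD_B pools 1 to 3 the counts were 179, 174 and 208 for CMB1-like and 157, 163 and 204 for APETALA 1 A-like.

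STERILE APETALA-like (LOC105162930), also chosen after its values were seen, had 0, 0 and 2 reads in SiCD_A and 14, 10 and 5 in SiCD_B. The ratio of the sums was 12.2, with an exact 95% interval of 3.10 to 106 that covers counting error only, and the gene was below the count filter. Its Arabidopsis namesake acts in flower development and in the size of organs.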
